A study of Bubalus bubalis with 8 samples.

Results

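CIRBP and RBM3 encode the best known cold-inducible RNA-binding proteins of mammals, and their mRNAs were followed here in buffalo mammary epithelial cells (MECs) after heat stress. Every probe whose gene name on the array was CIRBP or RBM3 was taken, whatever its signal, which gave 6 probes of 43653, 3 for each gene, and 2 genes of the 24839 gene names on the array. The genes were chosen because both are known to be expressed less in warm cells than in cool ones, and the choice of probes used no threshold on their values.

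The cells were a primary culture grown from the mammary tissue of 1 buffalo and used at a late passage. Unstressed MECs (CTR) were kept at 37 °C. The other cultures were held at 42 °C for 1 h, returned to 37 °C, and collected early (30 min, 2 h and 4 h) or late (8 h and 12 h, and then 16 h and 24 h) in the recovery. Each condition was hybridised with 1 dye to 1 bovine oligonucleotide array, 8 arrays in all, so no condition had a replicate, no p-value can be given, and precision is limited by how few arrays there are.

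CIRBP and RBM3 are small proteins with an RNA recognition motif at the amino end and a glycine-rich tail. Both are made in larger amounts under mild hypothermia, bind mRNAs, and affect their stability, splicing and translation. In rodents CIRBP transcripts follow the daily rhythm of body temperature and CIRBP binds transcripts of the circadian clock, and RBM3 is known for its link to protein synthesis and to the survival of cooled cells. Part of the temperature response of both genes lies in alternative splicing and polyadenylation, so probes at different places of 1 gene need not read the same transcripts.

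The 3 CIRBP probes lie on chromosome 7 of the cattle build HGSC Btau_3.1, on the plus strand, over 2614 bases. A_73_P085091 lies at chr7:42733373-42733432, A_73_P466570 at chr7:42734542-42734601 and A_73_P037761 at chr7:42735927-42735986, in the order of transcription. The 3 RBM3 probes lie on chromosome X, on the minus strand, over 1757 bases. A_73_P379816 lies at chrX:55775016-55775075, A_73_P430916 at chrX:55774593-55774652 and A_73_102119 at chrX:55773319-55773378, again in the order of transcription. The exons of this build were not analysed here, so the exon or intron under a probe is not given. All probes are 60 bases long and were designed on cattle, and the match of each to buffalo mRNA was not analysed here.

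For each gene 1 probe that reads from protein-coding sequence is shown, because these stretches hold the parts that mark the family. The CIRBP probe covers the conserved core of the RNA recognition motif, and the RBM3 probe covers the glycine-rich tail. Capitals mark codons that start with GG, which encode glycine, in the reading frame without a stop codon that holds the most of them. The CIRBP probe has 1 such codon among 20, and the RBM3 probe has 6 among 19. For CIRBP 1 frame had no stop codon and for RBM3 3 had none, so the RBM3 count is the highest among its frames.
CIRBP A_73_P085091: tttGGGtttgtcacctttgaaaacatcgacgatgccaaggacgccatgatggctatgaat
RBM3 A_73_P430916: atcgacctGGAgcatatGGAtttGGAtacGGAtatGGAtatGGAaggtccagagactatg

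Of the 6 probes, 4 were bright on 7 or all of the 8 arrays, by the mark for signals well above background, and 2 were not. For CIRBP the measured probes were A_73_P085091, with the highest mean level and used as the reference probe, and A_73_P466570. For RBM3 they were A_73_102119, bright on all 8 arrays and used as the reference probe, and A_73_P430916, which lacks the mark at 30 min. The CIRBP probe A_73_P037761 was above background on 0 of 8 arrays, and the RBM3 probe A_73_P379816 was marked above background on the 30 min array alone, where its spot also carried an outlier mark. No fold is given for either. None of the spots of the 6 probes was saturated.

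A level below is the log2 intensity of a probe minus the 75th percentile of its array, and a change is the level at a time point minus that of CTR. Levels of different probes are not compared, because probes differ in brightness. In place of replicates, the error of a change is taken from the SD between the repeated spots of probes printed 4 times on each array. It lay between 0.25 (30 min and 8 h) and 0.32 (2 h and 4 h), was 0.49 at 16 h, and covers spotting and scanning and not the spread between cultures. For the 30 min array, the scanner file and the log2 table deposited with it did not match, with a median difference of 1.91 over all probes, and the log2 table is used there. On the other 6 heat-stressed arrays this difference was at most 0.036.

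CIRBP was lower than CTR at all 7 time points on both measured probes, and furthest below at 30 min and 2 h. On each probe it was lower by more than the error at 5 of the 7. The level of A_73_P085091 was 2.18 in CTR, and in the early recovery it was 0.27 at 30 min, 0.59 at 2 h and 1.18 at 4 h. Late in the recovery it reached 1.90 at 8 h and 2.01 at 12 h, then 1.39 at 16 h and 2.08 at 24 h. The change from CTR at 30 min and 2 h was -1.91 and -1.59, followed by -0.999 at 4 h, -0.28 at 8 h and a change of -0.17 at 12 h. At 16 h and 24 h the change was -0.79 and -0.10. The early time points were thus the lowest, the values at 12 h and 24 h stood within 1 error of CTR, and 16 h stood again below its neighbours in time.

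The second CIRBP probe, A_73_P466570, had its lowest level at 2 h. Its level was 1.80 in CTR, against 0.18 at 30 min, -0.18 at 2 h and 0.52 at 4 h. The late levels were 0.74 at 8 h and 1.01 at 12 h, with 1.44 at 16 h and 1.52 at 24 h. The change at 30 min and 2 h was -1.62 and -1.98, and that at 4 h and 8 h was -1.28 and -1.06. It was -0.79 at 12 h and then -0.36 (16 h) and -0.28 (24 h). After 2 h each later level on this probe was higher than the one before, mostly by less than the error, with no second low value at 16 h.

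RBM3 was lower than CTR at 6 of the 7 time points on A_73_102119 and at all 7 on A_73_P430916. On both probes it was lower by more than the error at 30 min, 2 h, 4 h and 16 h. The reference probe A_73_102119 had a level of 3.64 in CTR, of 2.82 at 30 min, of 2.80 at 2 h and of 3.15 at 4 h. It stood at 3.80 at 8 h and 3.58 at 12 h, then at 2.68 at 16 h and 3.61 at 24 h. Against CTR it changed by -0.82 at 30 min, by -0.84 at 2 h and by -0.49 at 4 h. The late changes were 0.16 (8 h), -0.06 (12 h), -0.96 (16 h) and -0.03 (24 h). The values at 8 h, 12 h and 24 h stood within 1 error of CTR, and the lowest level, at 16 h, came from the array with the largest error.

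On A_73_P430916, the probe in the glycine-rich part shown above, RBM3 stood further below CTR. Its level, 4.53 in CTR, was 3.07 at 30 min, 2.94 at 2 h and 3.66 at 4 h. Late levels were 3.84 at 8 h and 3.94 at 12 h, with 3.41 at 16 h and 4.39 at 24 h. The early changes were -1.46 (30 min), -1.60 (2 h) and -0.87 (4 h), and the late ones -0.70 (8 h), -0.59 (12 h), -1.12 (16 h) and -0.15 (24 h). Here CTR was the highest of the 8 arrays and 24 h was the only time point within 1 error of it. At 30 min the scanner file lists this spot at the shared value that it gives to all spots not above the noise, so its 30 min level rests on the deposited log2 value alone.

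**Figure D1:**
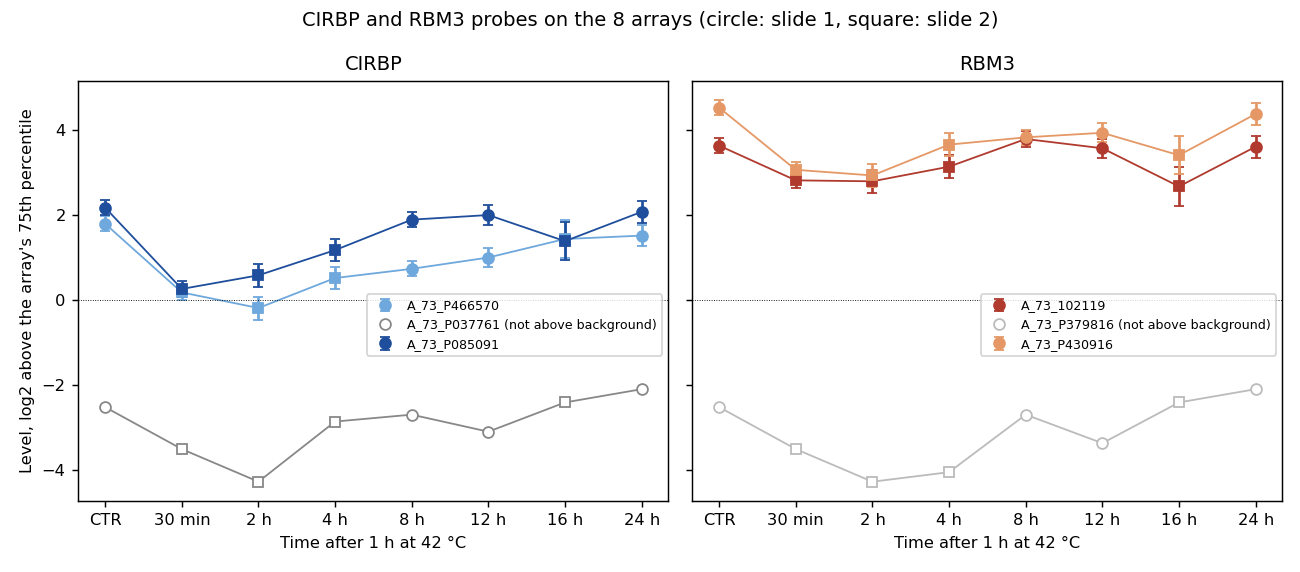
Level (log2 intensity minus the 75th percentile of the array) of the 3 CIRBP probes, left, and the 3 RBM3 probes, right, in CTR and at the 7 time points, with circles for slide 1, squares for slide 2 and bars for the SD between spots of 1 probe (the SD of CTR at 30 min). Filled points are the 4 measured probes, which are lowest between 30 min and 2 h except RBM3 A_73_102119, lowest at 16 h, and open points are the 2 probes not above background.

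Ordered by level, few neighbouring conditions were separated by more than the error between them. For CIRBP A_73_P085091 the order from low to high was 30 min, 2 h, 4 h and 16 h, followed by 8 h, 12 h, 24 h and CTR. The steps from 2 h to 4 h (0.59) and from 16 h to 8 h (0.51) exceeded their errors (0.38 and 0.49), and the other 5 steps did not. For CIRBP A_73_P466570 the order was 2 h, 30 min, 4 h and 8 h, followed by 12 h, 16 h, 24 h and CTR. The steps from 2 h to 30 min (0.37) and from 30 min to 4 h (0.34) exceeded their errors (both 0.32), and none of the later steps did.

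For RBM3 A_73_102119 the order was 16 h, 2 h, 30 min and 4 h, followed by 12 h, 24 h, CTR and 8 h, and the steps from 30 min to 4 h and from 4 h to 12 h were larger than their errors. For RBM3 A_73_P430916 the order was 2 h, 30 min, 16 h and 4 h, followed by 8 h, 12 h, 24 h and CTR, and the step from 12 h to 24 h (0.44, error 0.34) was the single one beyond its error. Most neighbours in these orders were thus not separated beyond the spot error.

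At 3-fold, the cutoff of the study's methods, 2 of the 4 measured probes were lower at 30 min, both of them CIRBP, against 5.14% of the 9268 probes detected in CTR and at 30 min. At 2 h 3 of the 4 were lower, both CIRBP probes and RBM3 A_73_P430916, against 8.67% of 11247 detected probes, and A_73_P085091 and A_73_P430916 were only just past the cutoff. These calls depend on the scaling: with the array median in place of the 75th percentile 0 of the 4 were 3-fold lower at either time point, and with normexp 0 at 2 h. With reference genes, bright probes alone or a local median as the basis, 1 of the 4 was at each time point, always a CIRBP probe. The array median falls among probes not well above background, since at most 40.2% of probes were well above it on any array. None of the 4 was 3-fold lower later, where 5.13% (4 h), 0.13% (8 h), 0.483% (12 h), 3.67% (16 h) and 0.45% (24 h) of detected probes were. None was 3-fold higher at any time point either, against 4.63% (30 min), 3.54% (2 h) and 2.94% (4 h) of detected probes early, and 1.95% (8 h), 1.4% (12 h), 4.44% (16 h) and 1.58% (24 h) late. All 7 comparisons share the 1 CTR array, so they are not independent of each other.

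At 2-fold, both CIRBP probes and RBM3 A_73_P430916 were lower at 30 min and again at 2 h, where 15.6% and 22.4% of detected probes were. CIRBP A_73_P466570 was the single one that was lower at 4 h, against 14.1%, and at 8 h, against 2.94%. RBM3 A_73_P430916 was the single one at 16 h, against 11.1%. None was at 12 h or 24 h, against 5.89% and 3.67%. CIRBP A_73_P085091 at 4 h was just short of the 2-fold limit.

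Many detected probes were lower than CTR early, and the members are best read against them. The median change over detected probes was -0.22 at 30 min, -0.38 at 2 h and -0.15 at 4 h, and between -0.27 and 0.01 at the later time points. At 30 min 2.69% of detected probes had a change below that of CIRBP A_73_P085091 and 4.87% below that of A_73_P466570. For RBM3 the shares were 6.27% for A_73_P430916 and 21.4% for A_73_102119. CIRBP thus stood in the lowest part of the distribution on both probes, and RBM3 on 1 of its 2.

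At 2 h the shares of detected probes below the member were 4.33% and 8.60% for CIRBP A_73_P466570 and A_73_P085091, and 8.54% and 28.5% for RBM3 A_73_P430916 and A_73_102119. At 4 h they were 8.49% and 14.1% for CIRBP and 17.6% and 32.9% for RBM3, in the same order of probes. At 12 h 58.5% of detected probes lay below CIRBP A_73_P085091 and 67.1% below RBM3 A_73_102119, against 13.3% below CIRBP A_73_P466570 and 24.9% below RBM3 A_73_P430916. At 16 h the shares for the reference probes were 16.3% and 12.0%.

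**Figure D2:**
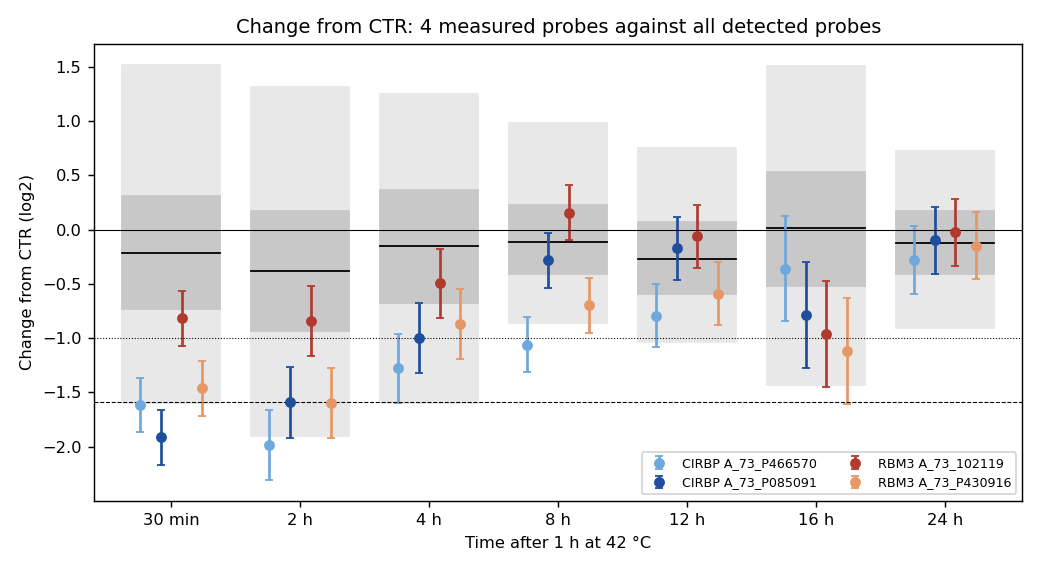
Change from CTR (log2) of the 2 CIRBP and 2 RBM3 probes at the 7 time points, with bars for the error of the change, over all probes detected on both arrays (line: median, dark box: 25th to 75th percentile, light box: 5th to 95th percentile), with dashed and dotted lines at 3-fold and 2-fold. At 2 h the 4 probes stand between -1.98 and -0.84, against a median of -0.38, and at 24 h between -0.28 and -0.03.

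The probes of 1 gene did not give the same size of change throughout. At 8 h the 2 CIRBP probes were 0.78 apart and the 2 RBM3 probes 0.85 apart, which was 2.19 and 2.40 times the error of that difference. The RBM3 probes also differed by 1.81 times this error at 30 min, 1.65 times at 2 h and 1.29 times at 12 h, and the CIRBP probes by 1.52 times at 12 h. At 24 h both pairs stood within it. Averaged over its measured probes, CIRBP was -1.76 at 30 min, -1.79 at 2 h and -1.14 at 4 h from CTR, and RBM3 was -1.14, -1.22 and -0.68.

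Position on the array moved with part of these gaps. Around each probe the median change of detected probes within 10 spots was taken. At 2 h it was -0.93 around CIRBP A_73_P466570 and -0.75 around RBM3 A_73_P430916, both close to an edge of the array, and 0.09 and 0.00 around the reference probes A_73_P085091 and A_73_102119. With this local median subtracted, the change at 2 h was -1.05 and -1.68 for the CIRBP probes, A_73_P466570 first, and -0.84 for both RBM3 probes.

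At 8 h the locally corrected change was -0.68 and -0.71 on the 2 CIRBP probes and -0.16 and -0.01 on the 2 RBM3 probes. At 30 min it was -1.24 and -1.85 for CIRBP and -0.95 and -0.85 for RBM3. The probes of each gene were thus nearer to each other at 8 h than without the correction, and at 30 min the RBM3 probes were too, while the CIRBP probes were further apart at both early time points. All 4 probes stayed below CTR with it at the 3 early time points and at 16 h.

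The CTR array has a dark region in its middle rows, in columns 30 to 59 and ending at row 330, where spots read far below the other arrays. None of the 6 probes lies in it. CIRBP A_73_P085091, in row 267 and column 18, shares its rows, and RBM3 A_73_102119, in row 181 and column 38, shares its columns. Lower readings of CTR also reached beyond the edges of the region. In the block of spots that holds A_73_P085091 CTR was -0.27 from the other arrays by the median. In the blocks of A_73_102119, A_73_P466570 and A_73_P430916 it was 0.17, 0.59 and 0.18.

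**Figure D3:**
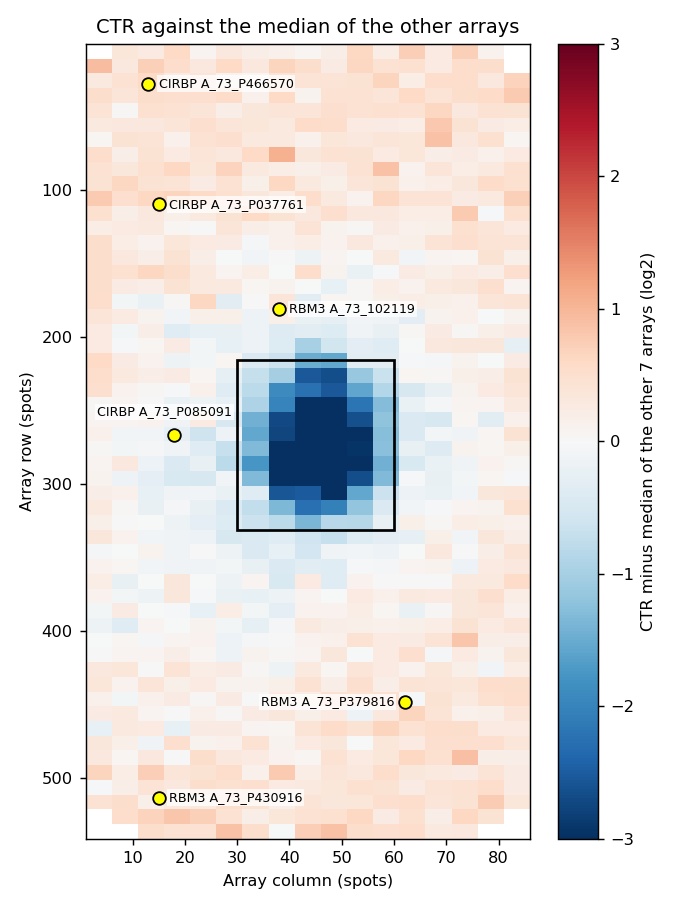
Median difference between CTR and the median of the other 7 arrays (log2, colour scale from -3 to 3) over the array's rows and columns in spots, with the 6 member probes as points and the dark region (columns 30 to 59, ending at row 330) as a box. The low values fill the box and fade out beyond its edges, and none of the 6 points lies inside it.

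The arrays came from 2 slides, and heat and slide overlap. CTR and the 8 h, 12 h and 24 h arrays were on slide 1, and those of 30 min, 2 h, 4 h and 16 h on slide 2, so for the time points with the lowest values slide and time after heat cannot be told apart. Within the slide of CTR, the median change over 8 h, 12 h and 24 h was -0.17 for CIRBP and -0.03 for RBM3 on the reference probes, and both were within the error. On the second probes it was -0.79 for CIRBP and -0.59 for RBM3.

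Within slide 2 the time points can be set against each other. From 2 h to 4 h CIRBP was higher by 0.59 on A_73_P085091 and 0.71 on A_73_P466570, and RBM3 by 0.34 on A_73_102119 and 0.73 on A_73_P430916, against an error of 0.38 and a median of 0.27 over detected probes. From 2 h to 16 h CIRBP was higher by 0.80 and 1.62 on the same probes, against an error of 0.53 and a median of 0.34. RBM3 was -0.12 on A_73_102119 and 0.48 on A_73_P430916 between 2 h and 16 h, both within the error. On 1 slide, CIRBP was thus higher at 16 h than at 2 h by more than the error, but on A_73_P085091 not beyond the error once the median of detected probes is taken off, and with the array median for scaling that probe was -0.89 from CTR at 2 h and -0.90 at 16 h. For RBM3 no difference was detectable.

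The changes were recomputed under other scalings and corrections of the same arrays. The settings counted include the reported one. Keeping outlier-marked spots and taking the deposited values gave the same or nearly the same changes as it, so these settings add little to the counts. At 2 h all 4 measured probes were below CTR under 9 of 9 settings, between -2.01 and -0.87 for CIRBP and between -1.65 and -0.13 for RBM3. At 30 min both CIRBP probes and RBM3 A_73_P430916 were below CTR under 8 of 8 settings that use the deposited values, and A_73_102119 under 7 of 8. At 4 h, CIRBP A_73_P466570 was below CTR under 9 of 9 and A_73_P085091 under 8 of 9, RBM3 A_73_P430916 under 8 of 9 and A_73_102119 under 6 of 9. At 16 h the 2 RBM3 probes and CIRBP A_73_P085091 were below CTR under 9 of 9 and A_73_P466570 under 8 of 9. With the median of the array in place of the 75th percentile, the median of all probes moved up by 0.96 at 30 min, 0.70 at 2 h and 1.09 at 4 h, and CIRBP A_73_P085091 was then 0.09 from CTR at 4 h and RBM3 A_73_102119 0.14 (30 min) and 0.60 (4 h). That array median lies among probes not well above background.

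**Figure D4:**
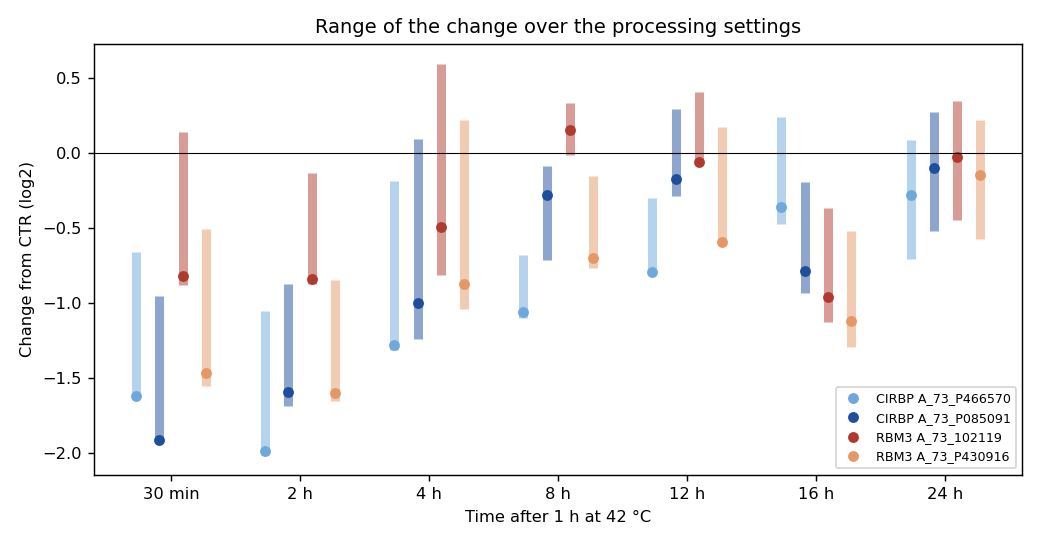
Change from CTR (log2) of the 4 measured probes at the 7 time points, with a point for the reported value and a bar from the lowest to the highest value over the settings (9 settings, 8 at 30 min). All bars stay below 0 at 2 h, whereas at 12 h and 24 h most cross it.

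The scanner file of the 30 min array gave another picture. With its intensities the change from CTR at 30 min was 0.69 for CIRBP A_73_P085091, 0.74 for CIRBP A_73_P466570 and 1.65 for RBM3 A_73_102119. Among probes within 20 rows, scanner and deposited values of that array correlated with r = 0.93 around A_73_P466570, 0.88 around A_73_102119, 0.23 around A_73_P085091 and -0.03 around A_73_P430916. Their median difference was 2.42, 2.46, -1.51 and -2.38 in the same places, so the scanner file departed from the deposited values by an amount that changed along the array, in either direction. The values at 30 min therefore hold for the deposited log2 table, and those at 2 h do not depend on it.

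The 4 measured probes followed similar courses over the 8 conditions. Pearson's r was 0.82 between the 2 CIRBP probes and 0.84 between the 2 RBM3 probes. Between the genes it ran from 0.48, for A_73_P466570 with A_73_102119, to 0.92, for A_73_P085091 with A_73_P430916. These values describe 8 points, all of which share their array's scaling, and a probe was not always most like the other probe of its own gene.

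Among 2803 probes with a gene symbol and above background on all 8 arrays by the deposited marks, the 5 genes most like CIRBP A_73_P085091 over the 8 conditions were COL1A1 (r = 0.997), which encodes a chain of type I collagen, PLK2 (0.996), a polo-like kinase, IGSF9 (0.991), an immunoglobulin superfamily protein, TRAF4 (0.989), a signalling adaptor, and FN1 (0.989), fibronectin. At 30 min these marks come from the scanner file, which did not match the log2 table used for r. They left out RBM3 A_73_P430916, at a level of 3.07 there. They let in COL1A1 and FN1, which were under the detection limit used here at 30 min. The 5 genes are thus the most like among the probes so marked. The 5 most like RBM3 A_73_102119 were COX4NB (0.992), a subunit of a membrane protein insertion complex, ZC3H15 (0.988), a zinc finger protein, U2SURP (0.984), a splicing factor, MEX3C (0.984), an RNA-binding ubiquitin ligase, and EXOSC9 (0.982), a subunit of the RNA exosome. The 2 sets had no gene in common.

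Some heat shock genes were higher after heat on the same arrays, but their median rose above CTR by more than the error on the 8 h array alone. Of 18 such genes 13 were detected in CTR. Their median change was 0.09 (30 min), -0.05 (2 h) and 0.30 (4 h) early. Late medians were 1.07 (8 h), -0.03 (12 h), -0.14 (16 h) and -0.41 (24 h). The lowest early changes were those of HSPD1, -1.26 (30 min) and -1.29 (2 h), and of DNAJA1, -1.78 (4 h). On the 16 h array 3 of the 13 were 3-fold lower and 1 was 3-fold higher. HSPA1A, the inducible HSP70, was 3.42 above CTR at 30 min, 2.84 at 2 h and 4.55 at 8 h. Its change at 24 h was -1.43. On the 8 h array 5 of the 13 were 3-fold higher than CTR, against 1.95% of detected probes, and none was lower. Of the 5 not detected in CTR, the chaperones HSPA6, HSPB8 and CRYAB were at least 26.1-fold, 51.6-fold and 79.1-fold higher at 8 h, taken against the detection limit of CTR or the probe's own CTR value where that was higher. On the same array CIRBP was -0.28 and -1.06 from CTR on its 2 probes, A_73_P085091 first, and RBM3 was 0.16 and -0.70, with A_73_102119 first. HSF1, the main heat shock transcription factor, was -0.05 from CTR at 30 min and -0.01 at 8 h.

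Cold shock domain proteins bind nucleic acids through another fold and are the other gene family named for the cold response. All 8 listed were on the array, and 5 were detected in CTR. CSDC2, an RNA-binding member of this family, had the lowest change, -2.15 at 30 min, -2.51 at 2 h and -2.21 at 4 h, before -0.52 at 8 h. At 16 h its probe was not above the noise. YBX1, an abundant mRNA-packaging protein, was 0.59 at 30 min and 0.29 at 2 h from CTR. At 2 h 1 of the 5 was 3-fold lower, against 8.67% of detected probes, and the list's median was -0.63.

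The nearest relatives by domain, other proteins with RNA recognition motifs, had a median nearer to that of all detected probes than to CIRBP in the early recovery. Of 22 listed, 21 were on the array and 20 detected in CTR. Their median change was -0.43 at 30 min, -0.49 at 2 h and -0.34 at 4 h, and 0 of 20 were 3-fold lower at 2 h, against 8.67% of detected probes. RBM4B, a splicing regulator, was lowest at -1.57, just short of the cutoff and within the error of CIRBP A_73_P085091. At 16 h their median was -0.80, and 8 of 18 were 2-fold lower, against 11.1% of detected probes, with HNRNPA1, an abundant splicing repressor, lowest at -2.02. RBM3, whose 2 probes had a mean change of -1.04 at 16 h, thus lay among these relatives then, and HNRNPH1 stood highest at 0.02. At 2 h RBM3 A_73_102119 (-0.84) also lay among them, above HNRNPA3 (-1.23) and RBMX (-1.18) and below the highest, TIAL1 (0.43). RBM3 A_73_P430916 (-1.60) differed from RBM4B by less than the error at 2 h.

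Genes known to act on, or with, CIRBP or RBM3 were 15 in the list, with 14 on the array and 11 detected in CTR. TNPO1, an importin that carries CIRBP into the nucleus, was -1.88 at 2 h and under the detection limit at 30 min. DYRK1B, a kinase that CIRBP binds, was -1.64 at 2 h, XPO1, the nuclear export receptor, -1.33, and PRMT1, an arginine methyltransferase of RGG proteins, -1.21. Others were above CTR at 2 h: HNRNPH1 stood highest at 0.33, about the error (0.32). CLK2 (0.32), TRPV4 (0.32) and SP1 (0.28) were above CTR within it, and the list's median at 2 h was -0.69. At 2 h 2 of 11 were 3-fold lower, against 8.67% of detected probes, and 5 of 11 were 2-fold lower, against 22.4%. At 4 h none of 11 was 2-fold lower, and the list's median was -0.24.

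Transcripts known from other systems to be bound or affected by CIRBP or RBM3 were both above and below CTR. Of 12 listed, 11 were on the array and 8 detected in CTR. VEGFA, an angiogenic growth factor, was 1.74 at 30 min and 1.74 at 2 h, and TXN, thioredoxin, was -0.82 and -0.74. RPA2, a subunit of replication protein A, was -0.83 at 2 h and -1.71 at 24 h. The median of these 8 was 0.07 at 2 h. The other 3, the inflammatory genes IL8, PTGS2 and TLR4, were not detected in CTR and were detected at 30 min and 2 h, where at 2 h they were at least 115-fold, 5.51-fold and 4.30-fold higher. Of the clock genes 3 of 13 on the array were detected in CTR, PER1, BHLHE40 and DBP, so the transcripts of the clock that CIRBP is known to bind could hardly be measured here. PER1, a repressor of the clock, was 0.89 at 30 min and -1.02 at 8 h.

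The reference genes, 15 housekeeping genes, had a median change of -0.24 at 30 min, -0.40 at 2 h and -0.42 at 4 h, and of -0.50 at 24 h. Single genes spread widely around it. They ran from RPS15A (-1.81) to YWHAZ (0.48) at 2 h and from RPL4 (-2.39) to YWHAZ (0.91) at 4 h. At 16 h they ran from RPS23 (-3.07) to EEF1A1 (0.80). With the 12 of them that were above background on all arrays used for scaling, CIRBP A_73_P085091 and RBM3 A_73_102119 stayed below CTR at 2 h, and RBM3 A_73_102119 was 0.11 at 4 h.

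**Figure D5:**
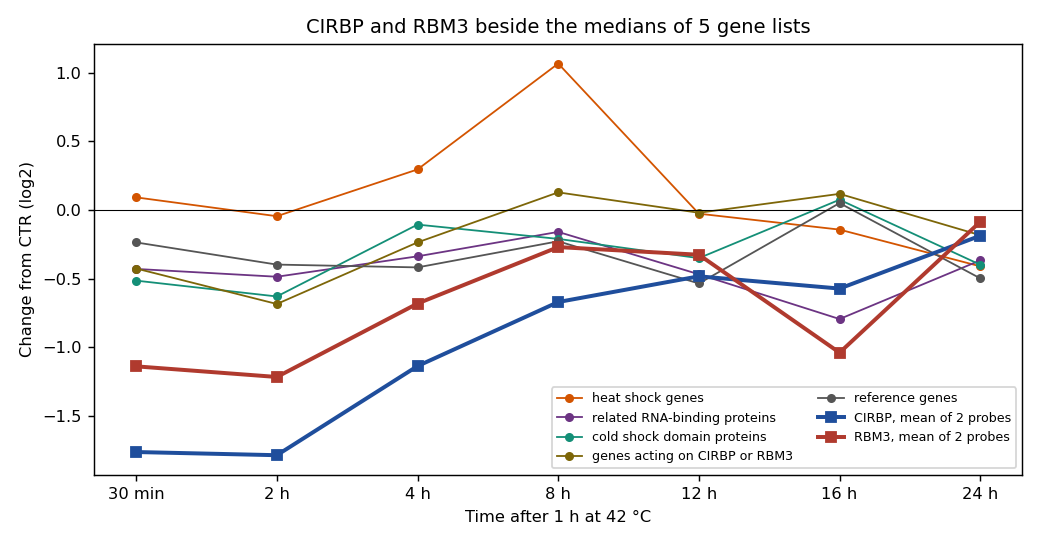
Change from CTR (log2) at the 7 time points of CIRBP and RBM3, each as the mean of its 2 measured probes (squares), and the median change of 5 gene lists (circles), over genes detected in CTR and at the time point. CIRBP (-1.79) and RBM3 (-1.22) lie below the medians of the 5 lists drawn at 2 h (those of the cell type markers are not drawn), and at 24 h they lie above 4 of them or more.

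Markers of cell types moved with the early values. Of 9 epithelial markers 8 were detected in CTR, and KRT18, one of the defining keratins, was not. Summed over the 8, the epithelial level was -1.63 at 30 min, -1.60 at 2 h and -1.10 at 4 h from CTR, against -0.34 at 8 h, and its range over the 8 arrays was from 7.65 to 9.28. At 2 h they ran from -2.62 for KRT8, a keratin of luminal cells, to 0.11 for CDH1, the epithelial cadherin, with a median of -1.21. Of 7 fibroblast markers 4 were detected in CTR, with a summed change of -0.65 at 30 min, -0.96 at 2 h and -1.84 at 4 h and a range of level from 5.70 to 7.53. At 2 h their median change was -2.18 and 3 of the 4 were 3-fold lower, from COL1A1 (-2.69) to VIM, vimentin (-0.92), and at 30 min 1 of the 4 was detected.

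PTPRC, a marker of leukocytes, was detected in CTR, and its change was 1.43 at 30 min, 1.38 at 2 h and 1.68 at 4 h. All 4 endothelial markers were below background in CTR. The part of these markers in the changes of CIRBP and RBM3 was not tested. In a bulk culture, fewer cells of a type and less RNA per cell cannot be told apart.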

How the data were processed

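RNA of 8 cultures was hybridised with 1 colour (Cy3) to 8 arrays. The authors read spot intensities with Feature Extraction 9.5.3.1 and deposited these intensities without scaling between arrays. The authors also deposited log2 values of each array, shifted to its 75th percentile and centred per probe, which were used for 30 min as differences from CTR. Here log2 intensities had the array's 75th percentile over 43653 probes subtracted, outlier-marked spots were left out, and spots of a probe were averaged (Python 3.11.15, pandas 2.3.3; limma 3.58.1 for normexp). The 75th percentile signal ranged from 65.0 (30 min) to 426 (12 h), and 20.9% to 40.2% of probes were well above background. A probe counted as detected at 30 min at a level of -0.09 or higher, which is the highest limit among the other 7 arrays (chosen after seeing the data). Spot SD came from 50 probes with 4 spots, of which 7 to 14 were usable per array, 30 min aside, where the SD of CTR was used. Samples were grouped by the time in the labels. The reference probe was the one above background on the most arrays, outside the dark region, and then of highest mean level. Genes named were the members, the extremes of the lists and the 5 most like each reference probe. The members, lists and rules were chosen with earlier results of these data known. HSF1, DYRK1B, XPO1 and PRMT1 at 2 h, among others, were named after their values were seen. The counting was tested on simulated data. With 1 array per condition, no test was made.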

Additional observations from a re-analysis of the deposited data

How the results depend on the processing

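Each change was recomputed under other scalings, normexp background correction (offset 50), the deposited log2 values, the 30 min scanner intensities, outlier-marked spots kept, a local median subtracted, and other probes. Of 152 values at single time points, 109 stayed within the error of the reported value and 43 did not. In all 28 changed sign, 21 of them where the reported change was itself within its error (8 h, 12 h and 24 h). Part of the 109 could not have moved. The 30 min scanner intensities alter only 30 min, and no spot of the 4 measured probes carried an outlier mark. The deposited log2 values were nearly the reported ones. For CIRBP the median change over the 7 time points (-0.79) was -0.19 with reference genes and -0.28 with the 30 min scanner intensities. With normexp, which gives no 30 min value, it was -0.17 over the other 6 time points, against -0.53 reported there. On the slide of CTR (-0.17) it was 0.27 with reference genes, 0.13 with normexp and -0.79 on the other probe. The mean of all 3 CIRBP probes there, -0.51, includes A_73_P037761, which was not above background, so it gives no measured change. Such means over 3 probes also enter the 152 values and the 28 sign changes. For RBM3 the median over the 7 time points (-0.49) changed sign to 0.14 with the array median and 0.11 with reference genes, and was -0.062 with the 30 min scanner intensities, -0.81 with the local median subtracted and -0.87 on the other probe. With normexp it was 0.15 over the other 6 time points, against -0.28. On the slide of CTR (-0.03) RBM3 was 0.34 with reference genes and -0.59 on the other probe. The 7 sign changes of reported values beyond their error were, for CIRBP, 0.69 at 30 min with scanner intensities and 0.093 at 4 h with the array median, and for RBM3, 0.14 (array median) and 1.65 (scanner intensities) at 30 min, and 0.60 (array median), 0.11 (reference genes) and 0.20 (normexp) at 4 h. The causes were not tested.

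Of the 5 genes most like CIRBP, 2 remained with Spearman's rho, and of those most like RBM3, 0 remained, and 3 without the 30 min array. The share of probes 3-fold lower at 30 min, 2 h and 4 h was 8.85%, 49.2% and 8.51% over all probes, and 0.658%, 2.66% and 0.478% with the array median. The 49.2% includes probes at the shared value for spots not above the noise. At 2 h a probe at that value on both arrays reads 3.38-fold lower without any signal, so this share does not measure lower transcripts. At 8 h, 12 h and 24 h it was 1.13%, 1.86% and 1.13% over all probes, and 0.0373%, 0.167% and 1.99% with the array median. At 2-fold it was 15.6%, 22.4% and 14.1% early, and 2.94% (8 h), 5.89% (12 h), 11.1% (16 h) and 3.67% (24 h) late.

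No paired analysis was possible because every condition has 1 array. At 30 min the deposited log2 values have no pixel intensities for normexp, and the dim probe of each gene gave no value as the other probe. Signal over background limits the 2 dim probes, for which no change can be given, and the error of 0.49 at 16 h limits the values there.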
